A study of Mus musculus with 2 samples.

Results

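The Toll-like receptors and their adaptor were followed in breast tumour tissue of mice that received a PD-1 inhibitor by injection into the peritoneum plus acupuncture, against tumour tissue of mice that received the injection alone. The 10 genes were taken by symbol from a table of 35602 gene symbols: the receptors Tlr1 to Tlr9 and the adaptor Myd88. All 10 were present and all 10 had a combined count of at least 20, the minimum for a ratio, as did 18687 symbols in all. Both groups carried the PD-1 inhibitor, an agent that blocks the receptor through which PD-L1 restrains T cells. By design the comparison concerns the addition of acupuncture, which cannot be told apart here from differences between animals or pieces of tissue. Each group had 1 library, so no difference has a replicate check, no test between the groups was possible, and every interval covers counting error only. The labels used here name no tumour model, strain, age, acupuncture point or number of animals per library, and the design asks which genes differ with acupuncture, with immune genes singled out.

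Toll-like receptors are sensors of microbial and damage-derived molecules. Those on the cell surface, TLR1, TLR2, TLR4, TLR5 and TLR6, recognise lipids, lipoproteins and flagellin, and those in endosomes, TLR3, TLR7, TLR8 and TLR9, recognise nucleic acids. All of the receptors followed here except TLR3 signal through MYD88, which assembles IRAK kinases and leads to NF-kappaB and IRF factors, whereas TLR3 signals through TICAM1 and TLR4 uses both routes. In tumours the receptors are found on macrophages, dendritic cells, B cells and neutrophils, and several are also made by epithelial, stromal and fat cells.

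The acupuncture library held 60752043 counts and the PD-1 inhibitor library 105728292. Levels are given as scaled CPM, counts per 1000000 after library sizes were multiplied by TMM factors. All 13 epithelial markers were measured, at a summed 2762 CPM with acupuncture and 4107 CPM with the PD-1 inhibitor alone. Levels of cell type markers differed widely between the libraries. Over all genes, 9.07% were at least 2-fold higher with acupuncture and 4.98% at least 2-fold lower, with counting intervals that left out 1. Of the 12 B cell markers 12 were at least 2-fold higher with acupuncture (summed 162 against 7.72 CPM), as were 12 of 12 T cell markers (158 against 26.7 CPM), 11 of 12 adipocyte markers (1947 against 530 CPM), 12 of 12 skeletal muscle markers (2178 against 230 CPM) and 8 of 9 lymph node markers (214 against 28.6 CPM). Of the 14 neutrophil markers 8 were at least 2-fold lower (357 against 790 CPM). Padi4 (206 against 257 CPM) and Mmp9 (124 against 312 CPM) weigh most in that sum. The log2 ratios of the 14 had a median of -1.43 and ran from -5.14 (S100a9) to 0.75 (Mpo). Macrophage markers had 1 of 16 lower and 0 higher (4777 against 5590 CPM), and conventional dendritic cell markers had 3 of 12 higher and 0 lower (161 against 133 CPM). Markers at 0 counts were Fcmr of the B cell list and Chst4 and Ccl21b of the lymph node list, all 3 in the PD-1 inhibitor library. In bulk tissue, fewer cells of a type and less RNA per cell cannot be told apart, and the part of these differences in the results below was not tested.

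Under TMM scaling none of the 10 genes differed by 2-fold or more between the libraries. With the macrophage or the epithelial marker list centred on 0 Tlr3 did, at a log2 ratio of 1.11 or 1.35. These scalings raise all log2 ratios, by 0.31 and 0.55. Genes are called listed here, as higher or as lower, if they differed by 2-fold or more with an exact 95% counting interval that left out 1. Under TMM scaling 14.0% of all genes met that rule (9.07% higher, 4.98% lower). That share was not computed under the marker-list scalings, so calls made there, that of Tlr3 included, have no background beside them. The ratios of the 10 genes, acupuncture over PD-1 inhibitor alone, ran from 0.748 for Tlr8 to 1.74 for Tlr3, and their median log2 ratio was -0.04, against -0.02 over all genes measured. At a limit of 1.5-fold, which 24.8% of all genes passed in either direction, Tlr3 alone of the 10 was listed, as higher. The intervals of 8 of the 10 genes excluded 1, as did those of 69.9% of all genes. Of the 10, 4 lay above 1 (Tlr1, Tlr2, Tlr3 and Myd88), against 33.8% of all genes, and 4 lay below (Tlr5, Tlr6, Tlr7 and Tlr8), against 36.1%. These directions depend on how the libraries are scaled, and only that of Tlr3 held under all scalings tried: with the leukocyte marker list set to no difference Tlr1, Tlr2, Tlr4 and Myd88 fell below 1, and with the epithelial list set to no difference all 10 genes lay above 1.

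**Figure D1:**
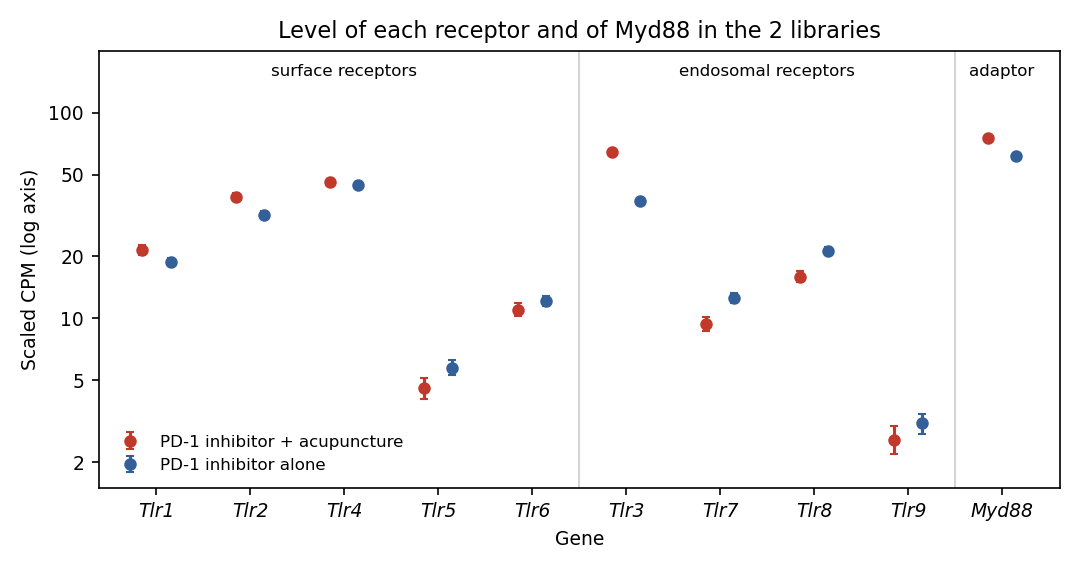
Scaled CPM (log axis) of each gene in the library of the PD-1 inhibitor plus acupuncture (red) and of the PD-1 inhibitor alone (blue), with exact Poisson 95% intervals, 1 library per group. Tlr3 stands further apart than the others, at 64.6 and 37.1 CPM, whereas Tlr7 and Tlr8 are lower in the acupuncture library under this scaling and higher with the epithelial list set to no difference.

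Among the surface receptors, Tlr2, the partner of both TLR1 and TLR6 in sensing lipoproteins, had 2473 counts (39.1 CPM) with acupuncture and 3245 counts (32.0 CPM) with the PD-1 inhibitor alone, 1.22-fold higher (95% counting interval 1.16 to 1.29). Tlr1, which pairs with TLR2 for triacylated lipopeptides, had 1361 counts (21.5 CPM) with acupuncture and 1900 counts (18.7 CPM) with the PD-1 inhibitor alone, 1.15-fold higher (1.07 to 1.23). Tlr6, which pairs with TLR2 for diacylated lipopeptides, had 697 counts (11.0 CPM) with acupuncture and 1229 counts (12.1 CPM) with the PD-1 inhibitor alone, 0.910 times its level there (0.828 to 0.999). Both partners of TLR2 therefore lay close to 1, on opposite sides of it. The split of reads between them is uncertain, because Tlr1 and Tlr6 are neighbours on chromosome 5 whose coding sequences share 6 identical runs of 50 bases or more, 748 bases in all. Of all 50-base windows of the transcripts, those shared with the other gene made up 13.6% for Tlr1 and 12.3% for Tlr6. The longest run, shown because a read lying within it belongs to either gene, covers coding bases 1468 to 1696 of Tlr1 and 1507 to 1735 of Tlr6 (GENCODE M21 transcripts).
Tlr1 and Tlr6, 229 bases: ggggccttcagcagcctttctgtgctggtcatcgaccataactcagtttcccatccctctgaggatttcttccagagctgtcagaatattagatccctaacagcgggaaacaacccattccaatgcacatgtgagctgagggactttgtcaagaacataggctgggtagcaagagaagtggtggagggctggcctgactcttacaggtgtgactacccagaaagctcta
Summed over Tlr1 and Tlr6, a total that does not depend on the split, the level was 32.5 CPM with acupuncture and 30.8 CPM with the PD-1 inhibitor alone, a ratio of 1.06 (0.997 to 1.12).

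Tlr4, the receptor for bacterial lipopolysaccharide, was nearly level, at 2918 counts (46.1 CPM) with acupuncture and 4525 counts (44.6 CPM) with the PD-1 inhibitor alone, a ratio of 1.03 (0.987 to 1.08). Its interval included 1. Tlr5, the receptor for flagellin, was at 289 counts (4.57 CPM) with acupuncture and 585 counts (5.76 CPM) with the PD-1 inhibitor alone, 0.792 times its level there (0.686 to 0.914). The 5 surface receptors summed to 122 CPM with acupuncture and 113 CPM with the PD-1 inhibitor alone, a ratio of 1.08 (1.05 to 1.11).

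The endosomal receptors divided. Tlr3, the sensor of double-stranded RNA, had 4089 counts (64.6 CPM) with acupuncture and 3764 counts (37.1 CPM) with the PD-1 inhibitor alone, 1.74-fold higher (1.67 to 1.82). It had more counts in the shallower library, the only one of the 10 genes to do so, and its log2 ratio of 0.80 stood at percentile 88.7 of all genes measured. Tlr7 and Tlr8, neighbouring genes of the X chromosome whose products sense single-stranded RNA and its breakdown products, were lower to the same degree under the main scaling and higher with the epithelial list set to no difference. Tlr7 had 596 counts (9.42 CPM) with acupuncture and 1278 counts (12.6 CPM) with the PD-1 inhibitor alone, 0.748 times its level there (0.678 to 0.825). Tlr8 had 1009 counts (15.9 CPM) with acupuncture and 2165 counts (21.3 CPM) with the PD-1 inhibitor alone, also 0.748 times (0.693 to 0.806). The 2 genes share no identical run of 50 bases. Tlr9, the sensor of unmethylated CpG DNA that B cells and plasmacytoid dendritic cells use, had 162 counts (2.56 CPM) with acupuncture and 313 counts (3.08 CPM) with the PD-1 inhibitor alone, 0.830 times (0.682 to 1.01), an interval that included 1. In the same libraries the 12 B cell markers summed to 162 CPM with acupuncture and 7.72 CPM with the PD-1 inhibitor alone. Their part in the result was not tested. The plasmacytoid dendritic cell markers had 5 of 11 higher and none lower, against 9.07% and 4.98% of all genes, at a summed 478 and 455 CPM. Bst2 (251 and 207 CPM) and Tcf4 (148 and 193 CPM) weigh most in that sum, and neither was among the 5. The log2 ratios of the 11 had a median of 0.28 and ran from -0.38 (Tcf4) to 3.49 (Spib).

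Myd88, the adaptor, was at 4791 counts (75.7 CPM) with acupuncture and 6250 counts (61.6 CPM) with the PD-1 inhibitor alone, 1.23-fold higher (1.18 to 1.28). Beside it, Tlr2 had 0.516 counts per Myd88 count with acupuncture and 0.519 with the PD-1 inhibitor alone, a ratio of 0.994 (0.932 to 1.06). A strand setting is not given for the counts, and 290 exonic bases of Myd88, 11.3% of its exon length, overlap Acaa1a on the opposite strand, while 381 bases of Tlr3, 7.32%, overlap the antisense gene Gm45542. Acaa1a, an enzyme of peroxisomal fatty acid breakdown, stood at 75.3 CPM with acupuncture and 111 CPM with the PD-1 inhibitor alone, 0.678 times (0.656 to 0.702), the opposite direction to Myd88.

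**Figure D2:**
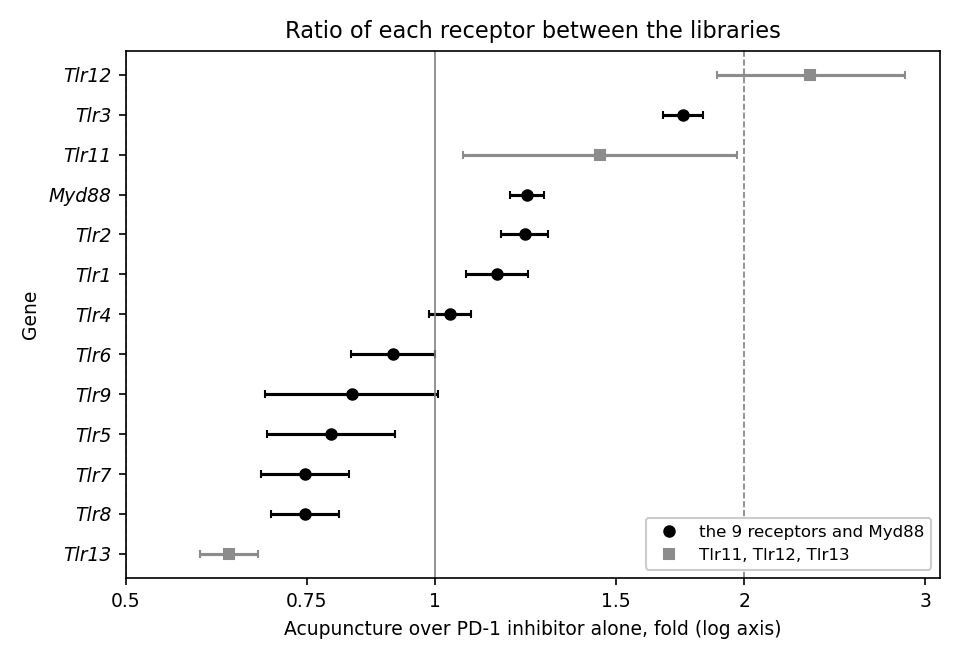
Ratio of each gene under TMM scaling, acupuncture over PD-1 inhibitor alone, on a log axis with exact 95% counting intervals; the dashed line marks 2-fold higher and the left edge of the axis a ratio of 0.5. All 10 genes (black circles) lie within these limits, between 0.748 and 1.74, and of the 3 other mouse receptors (grey squares) Tlr12 lies beyond at 2.32; with the leukocyte list set to no difference Tlr1, Tlr2, Tlr4 and Myd88 move below 1.

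Promoters of the 3 genes with the highest ratios, Tlr3, Myd88 and Tlr2, and of the gene with the lowest, Tlr8, are shown; they were chosen by their ratios. The windows hold 250 bases before and 50 after the gene start, from RefSeq on GRCm38.p6, and 8 of the 10 genes had an entry, all but Tlr4 and Tlr7. Capitals mark matches on either strand to GAAANNGAAA, a core of the interferon-stimulated response element, to TTCNNNGAA, the gamma-interferon activated site, and to the kappaB consensus.
Tlr3, chr8:45410331-45410630, minus strand: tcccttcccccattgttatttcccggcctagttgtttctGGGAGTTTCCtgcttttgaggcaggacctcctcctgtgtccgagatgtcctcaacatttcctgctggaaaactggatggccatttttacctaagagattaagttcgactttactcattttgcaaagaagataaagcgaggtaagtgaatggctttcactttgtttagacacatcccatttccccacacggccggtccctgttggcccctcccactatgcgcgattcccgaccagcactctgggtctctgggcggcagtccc
Myd88, chr9:119339969-119340268, minus strand: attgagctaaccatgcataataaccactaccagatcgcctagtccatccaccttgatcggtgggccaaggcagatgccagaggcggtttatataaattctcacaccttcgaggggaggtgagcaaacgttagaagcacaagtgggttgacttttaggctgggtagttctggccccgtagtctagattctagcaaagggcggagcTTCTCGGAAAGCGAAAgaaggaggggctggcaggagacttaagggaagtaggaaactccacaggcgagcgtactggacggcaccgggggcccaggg
Tlr2, chr3:83841559-83841858, minus strand: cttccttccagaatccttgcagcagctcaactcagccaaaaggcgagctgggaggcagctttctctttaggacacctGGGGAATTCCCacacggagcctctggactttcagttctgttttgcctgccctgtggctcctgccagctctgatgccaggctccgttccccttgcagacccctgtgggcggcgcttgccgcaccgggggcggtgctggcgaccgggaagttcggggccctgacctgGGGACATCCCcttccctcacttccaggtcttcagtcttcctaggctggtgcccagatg
Tlr8, chrX:167264280-167264579, minus strand: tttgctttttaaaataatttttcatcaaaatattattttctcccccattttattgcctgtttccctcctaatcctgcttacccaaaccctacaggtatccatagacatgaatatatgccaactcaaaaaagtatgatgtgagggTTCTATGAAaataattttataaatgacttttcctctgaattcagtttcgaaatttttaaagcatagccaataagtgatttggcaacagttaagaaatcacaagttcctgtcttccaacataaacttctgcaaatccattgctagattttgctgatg
The Tlr3 window held 1 kappaB match, GGGAGTTTCC, at position -211 from the gene start. In the Myd88 window TTCTCGGAA at -46 and GAAAGCGAAA at -40 overlapped. The Tlr2 window held 3 kappaB matches, of which GGGGAATTCC at -173 and GGGAATTCCC at -172 overlapped and GGGACATCCC lay at -8. The Tlr8 window held 1 TTCNNNGAA match at -106. Of the windows not shown, those of Tlr5 and Tlr9 held no match, 1 of the 2 of Tlr1 held a TTCNNNGAA match, and of the 2 of Tlr6, 1 held 2 GAAANNGAAA matches and 1 held 2 TTCNNNGAA matches. Over all 32851 windows of this length, 3.44% held GAAANNGAAA, 8.30% TTCNNNGAA and 8.46% the kappaB consensus. These matches describe letters only.

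Per kilobase of exon, Myd88 was first in both libraries, at 29.4 CPM per kb with acupuncture and 23.9 with the PD-1 inhibitor alone. The receptors followed in the order Tlr2 (13.0), Tlr3 (12.4), Tlr4 (8.30), Tlr1 (6.43), Tlr8 (4.45), Tlr6 (2.96), Tlr7 (2.31), Tlr5 (0.953) and Tlr9 (0.736) CPM per kb with acupuncture. With the PD-1 inhibitor alone the order was Tlr2 (10.6), Tlr4 (8.02), Tlr3 (7.12), Tlr8 (5.95), Tlr1 (5.59), Tlr6 (3.25), Tlr7 (3.08), Tlr5 (1.20) and Tlr9 (0.887). Tlr3 and Tlr4 changed places between the libraries, as did Tlr1 and Tlr8. Counting intervals of neighbours in the order overlapped for Tlr2 and Tlr3 and for Tlr5 and Tlr9 with acupuncture, and for Tlr8 and Tlr1 and for Tlr6 and Tlr7 with the PD-1 inhibitor alone. An alternative added after the data were seen divided the same CPM by coding length alone. That CPM was not restricted to coding reads, so the measure raises genes with long untranslated parts. By it Tlr3 led the receptors with acupuncture (23.8) and Tlr4 led with the PD-1 inhibitor alone (17.8). Exon and coding lengths were 5207 and 2715 bases for Tlr3, 5556 and 2505 for Tlr4, and 3014 and 2352 for Tlr2. The rank of Tlr2 depends on the length used, and the part of untranslated reads in that was not tested.

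A share of the summed receptor counts does not depend on the scaling between libraries, though longer transcripts weigh more in it. Of the counts of the 9 receptors, Tlr3 made up 30.1% with acupuncture (exact 95% interval 29.3 to 30.9; 4089 of 13594) and 19.8% with the PD-1 inhibitor alone (interval 19.2 to 20.4; 3764 of 19004). Tlr8 took 7.42% with acupuncture and 11.4% with the PD-1 inhibitor alone, and Tlr7 4.38% and 6.72%, whereas Tlr1 held 10.01% and 9.998%. Endosomal receptors together took 43.1% with acupuncture and 39.6% with the PD-1 inhibitor alone, a difference in which Tlr3 was higher and Tlr7, Tlr8 and Tlr9 were lower. Count ratios between genes within a library were computed for all 45 pairs of the 10 genes, and those of 34 pairs differed between the libraries beyond the 95% counting interval of their ratio, unadjusted for the number of pairs. All 9 pairs with Tlr3, the gene with the highest ratio of the 10, were among them. No such share was computed for pairs of other genes, so the 34 of 45 has no background beside it. Intervals of single genes excluded 1 for 69.9% of all genes. Per count of Tlr8 there were 4.05 counts of Tlr3 with acupuncture and 1.74 with the PD-1 inhibitor alone, a ratio of 2.33 (2.14 to 2.55). Per count of Tlr8 there were 0.591 counts of Tlr7 with acupuncture and 0.590 with the PD-1 inhibitor alone, a ratio of 1.001 (0.883 to 1.13). Beyond these pairs, 10 others set a receptor against a marker or partner gene outside the 10. Against 1 leukocyte gene, the phosphatase Ptprc, Tlr3 had 0.516 counts per Ptprc count with acupuncture and 0.509 with the PD-1 inhibitor alone, a ratio of 1.01 (0.960 to 1.07). Ptprc, at a log2 ratio of 0.78, lay above the median of 0.36 over the 16 leukocyte markers, which ran from -0.19 (Laptm5) to 1.25 (Evi2b), and with that list centred on 0 the log2 ratio of Tlr3 was 0.44. Of the 16, 1 was listed higher and 0 lower, against 9.07% and 4.98% of all genes, at a summed 1703 and 1450 CPM. For Tlr8 and Csf1r, the receptor for the growth factor of macrophages, there were 0.109 counts per Csf1r count with acupuncture and 0.116 with the PD-1 inhibitor alone, a ratio of 0.942 (0.870 to 1.02). Csf1r is 1 of 16 macrophage markers and had a log2 ratio of -0.33. The 16 had a median of -0.31 and ran from -1.20 (Mertk) to 0.20 (Fcgr1). With that list centred on 0 the log2 ratio of Tlr8 was -0.11.

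**Figure D3:**
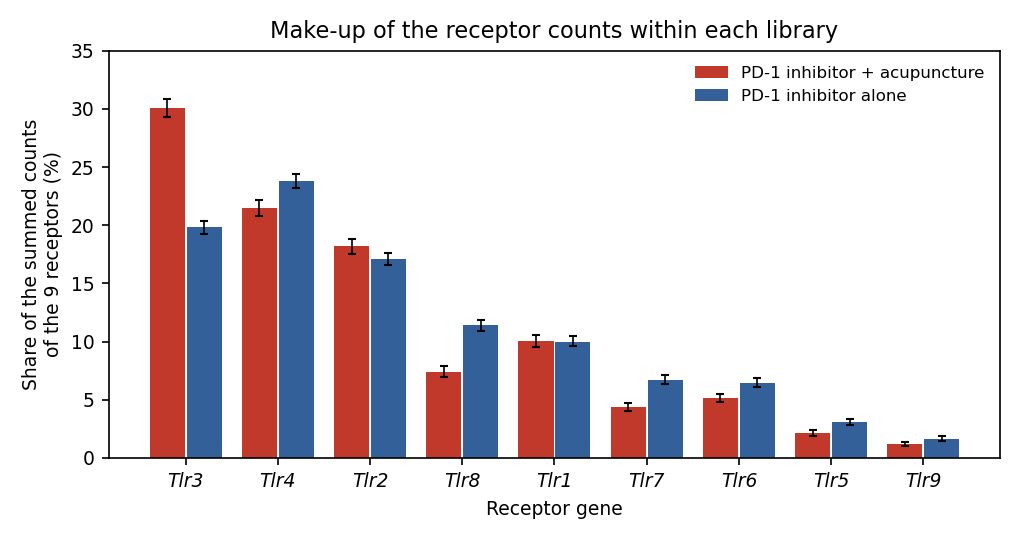
Share of each receptor gene in the summed counts of the 9 receptors within a library (%), with exact binomial 95% intervals, for the PD-1 inhibitor plus acupuncture (red) and the PD-1 inhibitor alone (blue). Tlr3 is the largest share with acupuncture, at 30.1%, and Tlr4 with the PD-1 inhibitor alone, at 23.8%.

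The mouse has 3 further receptors that the human genome lacks as working genes, and these spread more widely. Tlr12, which with TLR11 senses profilin of the parasite Toxoplasma, had 224 counts (3.54 CPM) with acupuncture and 155 counts (1.53 CPM) with the PD-1 inhibitor alone, 2.32-fold higher (1.88 to 2.86). Tlr11 had 84 and 93 counts (1.33 and 0.916 CPM), 1.45-fold higher (1.07 to 1.97). Tlr13, an endosomal sensor of bacterial ribosomal RNA, had 1295 counts (20.5 CPM) with acupuncture and 3293 counts (32.4 CPM) with the PD-1 inhibitor alone, 0.631 times its level there (0.591 to 0.673). It was the lowest ratio of the 12 receptors, next to those of Tlr7 and Tlr8.

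Proteins that help the receptors bind ligand, fold or reach endosomes had 2 of 13 genes listed higher and 0 lower, against 9.07% and 4.98% of all genes. Their log2 ratios had a median of -0.15, against -0.02 over all genes. With the leukocyte list centred on 0, 1 of the 13 was listed higher and 2 lower. Cd36, a scavenger receptor that assists TLR2 and that fat and endothelial cells also carry, was at 153 CPM with acupuncture and 34.1 CPM with the PD-1 inhibitor alone, 4.48-fold higher (4.31 to 4.66). Cd180, a TLR4-like protein typical of B cells, was 2.07-fold higher (1.80 to 2.39) at 7.10 and 3.43 CPM. Slc15a3, an endosomal peptide and histidine transporter, was at 27.3 and 51.4 CPM, 0.532 times (0.504 to 0.562). The chaperone Hsp90b1, needed for folding of most of the receptors, was at 1386 and 1655 CPM, 0.838 times (0.831 to 0.845), and Lgmn, a protease that trims endosomal receptors, at 401 and 532 CPM, 0.753 times (0.742 to 0.765). Cd14, the lipopolysaccharide co-receptor of TLR4, and Unc93b1, which carries receptors to endosomes, were named after their values were seen. Cd14 stood at 54.4 CPM with acupuncture and 92.2 CPM with the PD-1 inhibitor alone, 0.590 times (0.568 to 0.614), while Unc93b1 was at 106 and 105 CPM, a ratio of 1.01 (0.976 to 1.04).

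Of 18 kinases and ubiquitin ligases downstream 0 were listed in either direction under TMM scaling, also at 1.5-fold. Over all genes 14.0% were listed in either direction, and 24.8% at 1.5-fold. The median log2 ratio of the 18 was 0.05. That median was -0.31 with the leukocyte list centred on 0 and 0.60 with the epithelial list, under which Peli1 was listed higher. The furthest apart were the ubiquitin ligases Peli1, 1.39-fold higher (1.33 to 1.46), and Traf6, at 0.782 times (0.739 to 0.828), with the kinase-binding protein Tab1 at 0.818 times (0.773 to 0.864). Those with the highest CPM were the ubiquitin-conjugating enzyme Ube2n at 140 and 132 CPM, a ratio of 1.06 (1.03 to 1.09), and the adaptor Tab2 at 130 and 132 CPM, a ratio of 0.984 (0.957 to 1.01). Of the 5 adaptors other than Myd88, only Sarm1, an NAD-cleaving enzyme abundant in neurons, was listed, at 109 and 85 counts and 2.06-fold higher (1.53 to 2.76). Ticam2, which links TLR4 to TICAM1, was 1.33-fold higher (1.16 to 1.54), as was Pik3ap1, a phosphoinositide kinase adaptor of B cells and macrophages (1.26 to 1.42). Tirap, the bridge from TLR2 and TLR4 to MYD88, was 1.13-fold higher (1.08 to 1.19). Ticam1, the adaptor of TLR3 and named after its values were seen, was at 11.5 CPM with acupuncture and 13.6 CPM with the PD-1 inhibitor alone, 0.849 times (0.775 to 0.929), against the 1.74-fold of Tlr3.

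Transcription factors of the pathway had 1 of 13 genes listed higher and 0 lower, against 9.07% and 4.98% of all genes. Their log2 ratios had a median of 0.28. Fos, a subunit of AP-1, was 2.19-fold higher (2.10 to 2.29), and the interferon regulatory factors Irf1 and Irf7 were 1.81-fold (1.78 to 1.85) and 1.54-fold (1.503 to 1.59) higher. Nfkb2, the precursor of the NF-kappaB subunit p52, was at 170 and 188 CPM, 0.900 times (0.879 to 0.922). Of 12 negative regulators 1 was listed higher and 1 lower. Socs1, a cytokine-induced inhibitor of JAK kinases, was 2.27-fold higher (2.09 to 2.47), and Zc3h12a, an RNase that degrades cytokine messages, was lower at 0.447 times (0.413 to 0.484). Irak3, an inhibitory IRAK of macrophages, was 1.65-fold higher (1.48 to 1.84), while Nfkbia and Tollip, which hold back NF-kappaB and IRAK1, were at 0.926 times (0.894 to 0.958) and 0.848 times (0.818 to 0.878).

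Cytokines, chemokines and enzymes that the receptors can induce went widely apart. Of 21 genes 20 had enough counts, and 4 were listed higher and 6 lower, against 9.07% and 4.98% of all genes. The median log2 ratio was -0.42. Setting Il12a to its bound could not move that median, because Il12a was the highest of the 20 either way. Il12a, a subunit of interleukin 12, had 37 counts with acupuncture and 0 with the PD-1 inhibitor alone, a ratio of 19.8 against a floor of 3 counts in that library and at least 15.3-fold higher by the lower end of its exact 95% counting interval. Cxcl3 and Cxcl2, attractants of neutrophils, were at 0.316 and 9.59 CPM, 0.0330 times (0.0201 to 0.0512), and at 1.56 and 13.2 CPM, 0.118 times (0.0956 to 0.145). Il1b, the message of interleukin 1 beta, was at 51.3 CPM with acupuncture and 86.0 CPM with the PD-1 inhibitor alone, 0.596 times (0.573 to 0.621). Ptgs2, an inducible enzyme of prostaglandin synthesis, had 3161 counts with acupuncture and 8568 with the PD-1 inhibitor alone, 0.592 times its scaled level there (0.568 to 0.617). The others listed, named after their values were seen, were Il6 (2.92-fold), Il12b (2.57-fold) and Cxcl10 (4.37-fold) as higher, and Il1a (0.269 times), Ccl3 (0.349 times), Nos2 (0.378 times) and Csf3 (0.371 times) as lower. Of 10 host molecules described as ligands of the receptors, 3 were listed lower and none higher, with a median of -0.17. Those lower were the neutrophil alarmins S100a9, at 3.14 and 112 CPM (0.0281 times, 0.0243 to 0.0323), and S100a8, at 1.45 and 45.8 CPM (0.0318 times, 0.0256 to 0.0391), and the acute phase protein Saa3, at 51.1 and 171 CPM (0.298 times, 0.287 to 0.309). The matrix protein Fn1 was at 3410 and 5606 CPM, 0.608 times (0.605 to 0.611), and the chaperonin Hspd1 at 702 and 619 CPM, 1.13-fold higher (1.12 to 1.15). S100a8 and S100a9 are also neutrophil markers and are themselves among the 8 of 14 that were lower in the same library. Several of these calls rest on the scaling, a comparison of the lists added after the data were seen. With the leukocyte list centred on 0, Tlr12, Cd180, Sarm1, Socs1 and Fos were no longer listed, and with the macrophage or epithelial list centred on 0 Zc3h12a was not. Calls were also gained. The leukocyte list added Tlr13, Cd14, Slc15a3, Il1b, Ptgs2, Acod1, Il1rap, Il18rap and Fn1 as lower. The macrophage list added Irak3, Irf1, Ccl5 and Dcn as higher, besides Tlr3, and the epithelial list added these and others. The median of the inducible targets was -0.78 with the leukocyte list and 0.14 with the epithelial list, under which 6 were listed higher and 3 lower. The medians of the co-receptors and of the host ligands were above 0 with the macrophage and epithelial lists, and that of the transcription factors was -0.08 with the leukocyte list.

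**Figure D4:**
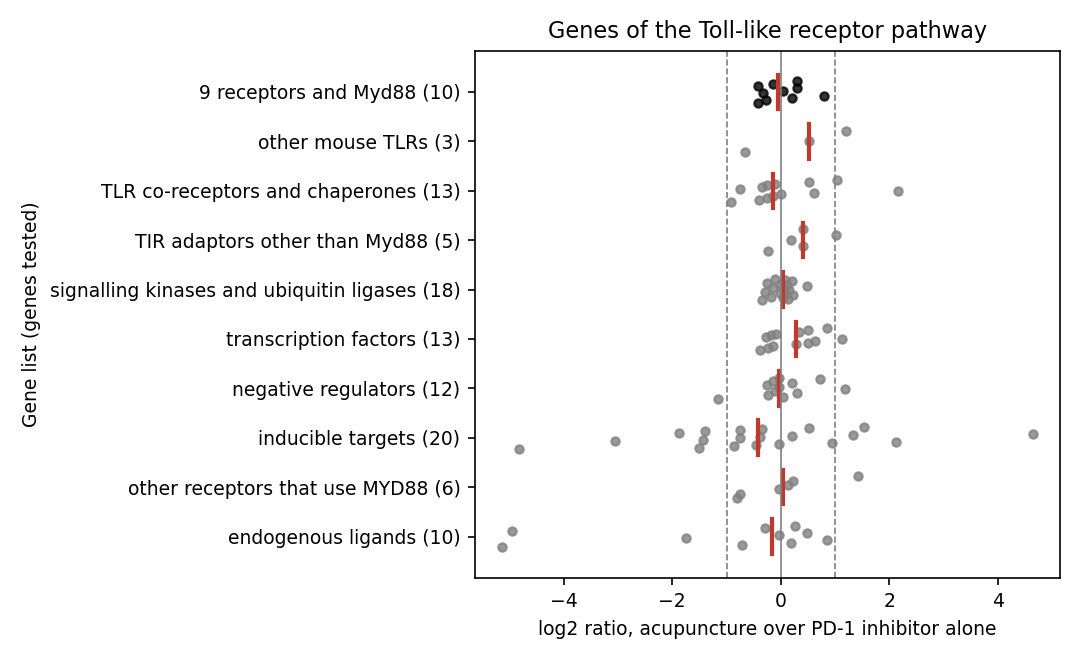
Log2 ratio under TMM scaling, acupuncture over PD-1 inhibitor alone, of each measured gene (points) in lists of the pathway, with the median of each list (red bar); dashed lines mark 2-fold. The 10 genes (black) and the 18 kinases and ligases lie within 2-fold, whereas inducible targets run from -4.82 (Cxcl3) to 4.65 (Il12a, 0 counts in 1 library, so its point depends on the prior count).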

How the data were processed

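Whole-number counts of reads per gene symbol, not normalized, were deposited by the authors for 2 libraries of messenger RNA, 1 per group. Genome builds GRCm39 and mm39 are named in the submitters' processing notes; for the aligner, counting program, annotation and strand setting, nothing was given in the sources used here. Lines without a gene name numbered 0. Library sizes were multiplied by TMM factors over all rows (edgeR 4.0.16, R 4.3.3; 1.04 with acupuncture, 0.960 with the PD-1 inhibitor alone). Each ratio is acupuncture over PD-1 inhibitor alone, and its 95% interval is the exact Clopper-Pearson interval of the acupuncture library's share of both counts; log2 ratios carry a prior count of 2. Ratios between genes within a library have exact conditional intervals for an odds ratio. Because reads carried no stated molecular identifiers, they are not independent molecules and intervals cover counting error only.

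The genes and 23 lists (272 entries, 1 without a row) were chosen with earlier results of these data known. From each pathway list the text names up to 5 genes, the 2 with the highest mean CPM and the 3 with the largest absolute log2 ratio; genes outside that rule are marked. Exon and coding lengths, shared runs and overlaps come from GENCODE M21, a GRCm38 annotation, and may differ from those of the counts. The calculation was tested on simulated Poisson counts, where 95.3% of the intervals held the true ratio. Those counts carried no variation between animals or pieces of tissue, so the test covers counting error only. Scalings by total counts, DESeq2 1.42.0 size factors, upper quartile, totals without the 10 most abundant genes and marker lists, other limits and minimums, and thinning were tried. Other software was matplotlib 3.10.9, scipy 1.17.1, pandas 2.3.3 and numpy 2.4.6 under Python 3.11.15.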

Additional observations from a re-analysis of the deposited data

How the results depend on the processing

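With 1 library per group, no alternative supplies a replicate check. No paired analysis was possible because each group has 1 library and no test was made. None of the 10 genes was listed lower under any of the 13 alternatives, but several of these could not have changed that. With TMM ratios of 0.748 to 1.74, no gene could be listed at the 4-fold limit or at the 2-fold limit alone. The same holds for the combined count minimums of 1 and 100. Tlr3 alone was listed higher (1 gene against 0) at a 1.5-fold limit and with the macrophage list or the epithelial list centred on 0. At 1.5-fold 13.9% of all genes were listed higher, and with the marker lists that share was not computed. The median log2 ratio of the 10 genes, -0.04, became 0.074 with total counts and 0.074 with totals without the 10 most abundant genes, which both raise all log2 ratios by 0.12. It became -0.40 with the leukocyte list, 0.27 with the macrophage list and 0.51 with the epithelial list set to 0, by construction of these scalings. Tlr3 kept its direction throughout, from 0.44 to 1.35. Tlr5, Tlr7 and Tlr8 turned positive with the epithelial list and Tlr6 and Tlr9 with the epithelial and macrophage lists. Over all genes, 1694 were listed higher and 931 lower. These counts became 2603 and 2026 at 1.5-fold, 672 and 266 at 4-fold, and 1038 and 511 at a combined count of at least 100, which tests fewer genes.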

Other observations

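The other receptors that signal through MYD88, those of the interleukin 1 family, had 1 of 6 genes listed higher and 0 lower. Over all genes the shares were 9.07% and 4.98%. The log2 ratios of the 6 had a median of 0.04. With the leukocyte list centred on 0, 1 was listed higher and 2 lower. Il18r1, the ligand-binding chain of the interleukin 18 receptor on T and NK cells, was at 5.42 CPM with acupuncture and 2.02 CPM with the PD-1 inhibitor alone, 2.68-fold higher (2.25 to 3.21). Its signalling partner Il18rap was at 24.8 and 41.7 CPM, 0.594 times (0.560 to 0.630), so the 2 chains of 1 receptor lay on opposite sides of 1. Il1rap, the shared chain of the interleukin 1 and 33 receptors, was at 27.4 and 48.1 CPM, 0.570 times (0.539 to 0.602), while Il1r1, made by stromal cells, was at 111 and 102 CPM, 1.09-fold higher (1.06 to 1.12).

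With 2 libraries the likeness of 2 genes is no more than the difference of their log2 ratios. Among the pathway genes measured, those closest to Tlr3 were Dcn, a matrix proteoglycan (0.05 above it), Irf1 (0.06 above it) and Irak3 (a difference of -0.08). Closest to Tlr8 were Lgmn (0.01 above it), Irf3 (0.03 above it) and the chemokine Cxcl1 (a difference of -0.04). Within a library, there were 0.848 counts of Tlr4 per count of its co-receptor Cd14 with acupuncture and 0.484 with the PD-1 inhibitor alone, a ratio of 1.75 (1.65 to 1.86).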
